A study of Mus musculus with 7 samples.

Results

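Imprinted genes are described here in the islets of pregnant mice. These are 42 genes known to be expressed mainly from the maternal or the paternal chromosome, some of them only in certain tissues. They were chosen by name from a list of known imprinted genes, not from their values. The deposited gene table holds 34082 gene names, and 40 of the 42 had a row in it. NESP and DDC-AS1 had none. By their known parental origin, 16 of the 40 were maternally expressed and 22 paternally expressed. GNAS, which uses several starts of different origin, and Dio3os were kept apart. Reads were not assigned to a parental chromosome in these data, so the class of a gene is background knowledge and not a measurement.

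The material was RNA of islets hand-picked on day 15 of pregnancy from females mated to wild-type males, with 1 poly(A) library per mouse. By the methods of the study, islets were kept in culture overnight after picking. The 4 βPrlR+/- mice carry a floxed Prlr allele and Pdx1CreER, a Cre recombinase that tamoxifen activates under the Pdx1 promoter, which in the adult pancreas is active mainly in β-cells. The 3 Prlr+/- mice lack 1 Prlr allele in all tissues, carry no Cre and received no tamoxifen, so genotype, Cre and tamoxifen differed together and cannot be told apart. All 7 mice are on a C57BL/6 background, and in both groups a Prlr allele is missing from β-cells. No wild-type islets were analysed here. The sample titles of the βPrlR+/- mice read CkoWt. The deposited design text calls the β-cell deletion homozygous and gives an age of 3 to 4 months, where the methods of the study call it heterozygous and give 4 to 5 months.

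Genomic imprinting silences a gene on the chromosome inherited from one parent through DNA methylation laid down in the egg or the sperm. Imprinted genes lie in clusters that share a control region, and neighbours in a cluster are often expressed from opposite chromosomes. Many are known for control of fetal and placental growth, and several act in pancreatic endocrine cells. Gnas encodes the G protein subunit through which the GLP-1 receptor raises cyclic AMP, Cdkn1c restrains β-cell division, Grb10 binds the insulin receptor and dampens its signal, and Rasgrf1 takes part in β-cell growth.

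The values are TPM, the abundance unit of the kallisto output, divided by a size factor of each mouse and called scaled TPM below. The insulin genes took 46.1% to 58.9% of all TPM, and without the size factor the median log2 difference of all genes was -0.12. PRLR, the targeted gene, was at 55.6, 38.4, 47.3 and 38.8 scaled TPM in βPrlR+/- mice 1 to 4 and at 36.1, 51.1 and 35 in Prlr+/- mice 1 to 3. The groups overlapped, with a log2 difference of -0.15 (Prlr+/- minus βPrlR+/-, SE 0.17, 95% interval -0.55 to 0.26, limma adjusted p = 1). Leaving out βPrlR+/- mouse 1 gave -0.04, and leaving out Prlr+/- mouse 2 gave -0.31. In bulk islets, fewer cells of a type and less RNA per cell cannot be told apart. All 11 β-cell markers were present, INS among them. MAFA alone had an unadjusted p under 0.05 (log2 difference 0.71, limma unadjusted p = 0.0445). Of the 11, 10 had a positive difference, none past an adjusted p of 0.05 in limma. All 7 α-cell markers had a negative one, with 0 past that threshold and 2 with an unadjusted p under 0.05. The δ- and PP-cell markers summed to 18211 to 21354 scaled TPM in βPrlR+/- mice and 15775 to 17478 in Prlr+/- mice, without overlap. SST, PPY and PYY, which made up most of these sums, each overlapped between the groups. Of the 6 markers tested, 5 had a negative difference, 0 had an unadjusted p under 0.05 in limma, and only LEPR did not overlap. The neuron sums overlapped, at 206 to 341 and 179 to 234. VIP and SNAP25, whose groups overlapped, made up most of these sums. Of the 10 neuron markers tested, 9 had a negative difference, 6 had an unadjusted p under 0.05 and 6 did not overlap between the groups. STMN2 and PRPH passed, both lower in Prlr+/- mice, while ELAVL4 had a positive difference of 0.27 without overlap of the groups (limma unadjusted p = 0.00984, adjusted p = 0.807). Of the 9 stromal markers tested, 8 had a negative difference (median of the list -0.12), and COL3A1 had a positive one of 0.14. THY1 alone passed (log2 difference -0.73, limma adjusted p = 0.0410). It was also the only stromal marker with an unadjusted p under 0.05 and the only one without overlap of the groups. All 9 endothelial markers tested had a negative difference, with 0 past the threshold, 5 with an unadjusted p under 0.05 and 4 without overlap of the groups, and their sums overlapped at 187 to 220 and 155 to 191. The sum of 11 acinar markers ran from 2262 to 19611 within the βPrlR+/- mice.

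Of the 40 with a row, 3 averaged at least 100 scaled TPM, 15 lay between 10 and 100, 12 between 1 and 10, and 10 below 1. GNAS, Meg3 and PEG3 led, with means over the 7 mice of 827, 209 and 125 scaled TPM and ranks of 43, 229 and 416 among all gene names. The 40 genes summed to between 1530 and 1701 scaled TPM in a mouse, and GNAS and Meg3 made up 60.2% to 64.7% of this sum. Levels of 10 or more were reached by 8 maternally and 9 paternally expressed genes. A mean TPM of at least 0.5, the condition for testing, was reached by 32 of the 40: 12 maternally expressed genes, 19 paternally expressed genes and GNAS. The median level of the 32 was 14.2 scaled TPM, against 7.45 for the 14840 genes tested.

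**Figure D1:**
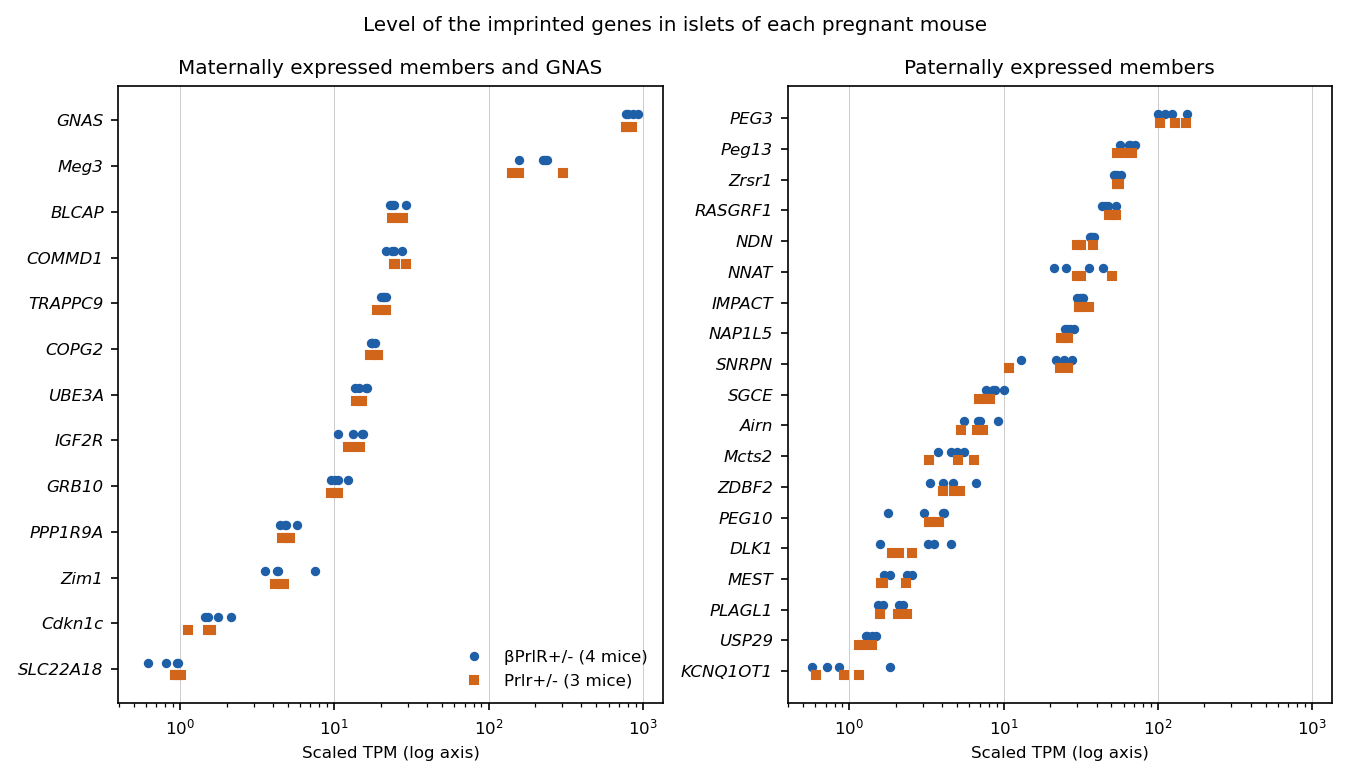
Scaled TPM on a log axis of the 32 imprinted genes tested, ordered by mean within each class, with 1 point per mouse (circles, 4 βPrlR+/- mice; squares, 3 Prlr+/- mice). The points of the groups overlap for every gene, from GNAS near 827 down to SLC22A18 near 0.894.

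The comparison of the groups asks whether loss of a Prlr allele in all tissues and loss in β-cells leave imprinted genes at different levels in pregnancy. None of the 32 passed an adjusted p of 0.05 (limma, Benjamini-Hochberg adjustment over all genes), where 10 of the 14840 genes tested, 0.0674%, did. None had an unadjusted p under 0.05 either, against 671 of all genes, 4.52%. In none did the groups separate, against 4.95% of all genes. The median log2 difference was -0.02 over the 12 maternally expressed genes and -0.05 over the 19 paternally expressed genes, beside 0.004 over all genes tested. Of the 32 genes, 18 were nominally lower in Prlr+/- mice, as were 48.3% of all genes. With TPM as deposited, where all genes shift by -0.12, the medians moved down with them and 11 of the positive differences turned negative. The 95% interval lay within 1 log2 unit of 0 for 32 of 32 genes, as for 94.6% of all genes. It lay within 0.5 log2 units for 24 of 32, as for 81.4% of all genes. The intervals of Meg3, SNRPN, NNAT and DLK1 were the widest, reaching -0.94 for SNRPN and 0.90 for NNAT, so differences of that size could have gone undetected in these mice.

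**Figure D2:**
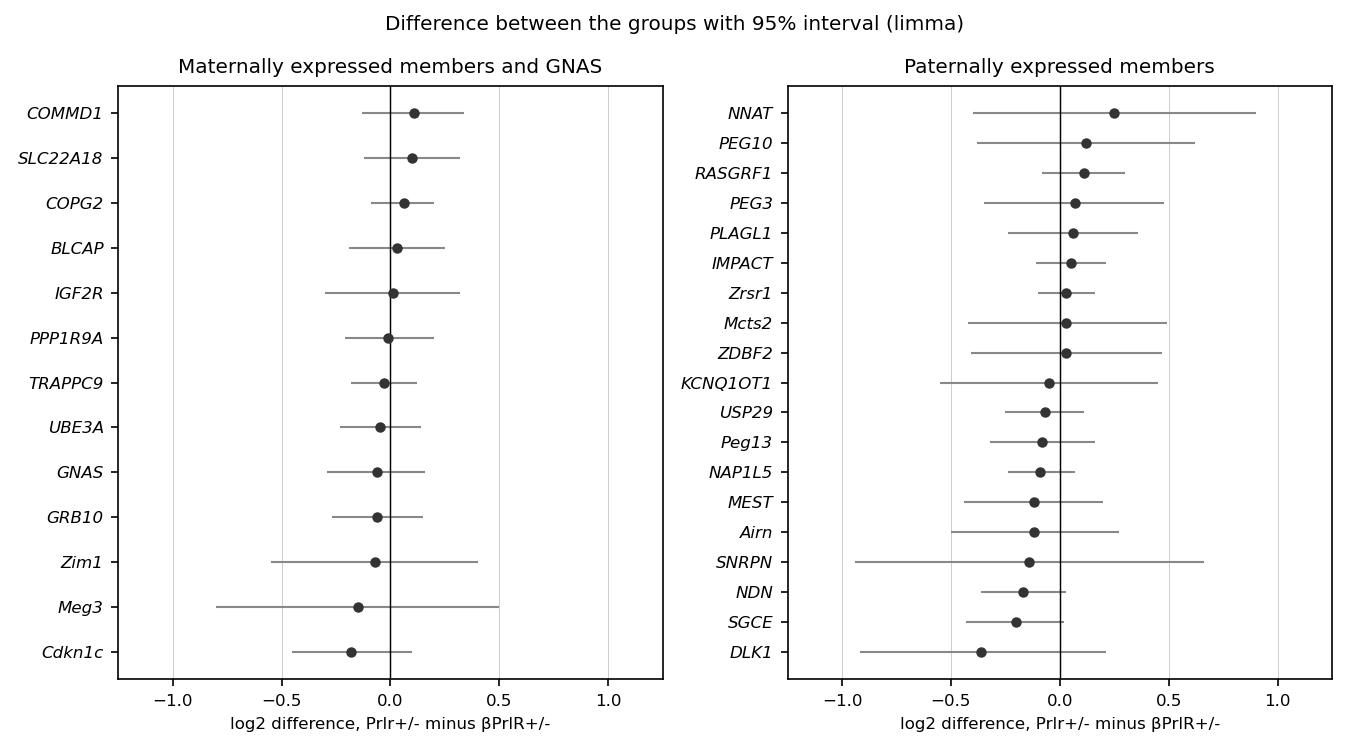
Log2 difference, Prlr+/- minus βPrlR+/- mice, with its 95% interval from limma for each of the 32 imprinted genes tested. Every interval includes 0 and stays within 1 log2 unit of it, and the widest belong to SNRPN, Meg3, NNAT and DLK1.

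GNAS was the most abundant of the imprinted genes. βPrlR+/- mice 1 to 4 had 930, 861, 800 and 781 scaled TPM, and Prlr+/- mice 1 to 3 had 855, 776 and 788. The ranges overlapped, and the highest mouse was only 1.20-fold above the lowest. The log2 difference was -0.06 (SE 0.10, 95% interval -0.29 to 0.16, limma adjusted p = 1). With TPM as deposited it was -0.21 (limma unadjusted p = 0.0384, adjusted p = 0.590), where all genes shift by -0.12. It was -0.01 without βPrlR+/- mouse 1 and -0.10 without βPrlR+/- mouse 4 or without Prlr+/- mouse 1. The locus has several first exons: the Nesp start (maternally expressed, for the secretory protein NESP55), the XL start (paternally expressed, for the long form XLαs), the exon 1A start (paternally expressed and noncoding) and the start of Gsα itself, which is biallelic in most tissues. Because the starts differ in known parental origin, windows of 300 bases at 3 RefSeq starts are printed (GRCm38.p6). The RefSeq starts differ by some bases from those of GENCODE. In order, the windows are Nesp chr2:174284070-174284369, exon 1A chr2:174327518-174327817 and Gsα chr2:174329756-174330055, all on the + strand. They hold 16, 28 and 40 CpG sites, and none holds TGCCGC or its complement GCGGCA, the core of the sequence that the imprint-protecting factor ZFP57 binds when methylated. Capitals mark that hexamer in the windows printed here.
Gnas Nesp start: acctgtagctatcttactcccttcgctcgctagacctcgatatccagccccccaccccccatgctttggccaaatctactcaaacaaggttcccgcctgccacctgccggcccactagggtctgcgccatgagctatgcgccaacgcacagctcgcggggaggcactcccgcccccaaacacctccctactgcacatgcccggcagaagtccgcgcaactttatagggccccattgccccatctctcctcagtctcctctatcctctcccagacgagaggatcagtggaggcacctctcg
Gnas exon 1A start: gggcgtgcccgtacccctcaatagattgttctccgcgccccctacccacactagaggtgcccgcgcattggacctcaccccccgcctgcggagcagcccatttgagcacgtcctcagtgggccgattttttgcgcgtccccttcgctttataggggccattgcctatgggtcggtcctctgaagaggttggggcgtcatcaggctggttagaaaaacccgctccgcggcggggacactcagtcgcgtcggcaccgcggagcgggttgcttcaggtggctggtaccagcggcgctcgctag
Gnas Gsα start: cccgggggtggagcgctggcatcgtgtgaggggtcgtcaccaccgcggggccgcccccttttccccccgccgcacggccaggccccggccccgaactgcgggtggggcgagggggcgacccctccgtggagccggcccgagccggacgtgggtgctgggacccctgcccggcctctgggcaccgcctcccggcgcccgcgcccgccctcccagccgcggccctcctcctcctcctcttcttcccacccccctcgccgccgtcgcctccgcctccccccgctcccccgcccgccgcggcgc

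The 20 GNAS transcripts were grouped by start through their match to GENCODE M21, and 9 of them, with 12.5% of the value, matched no start. Transcripts of the exon 1A start held 52.8% of GNAS (49.7% to 55.2% in a mouse) and those of the Gsα start 32.5% (31.0% to 34.5%). The exon 1A model shares 1160 of its 1427 bases, 81.3%, with the Gsα model, so the division between them is an estimate by the authors' transcript assignment. Nesp transcripts, which have no gene row of their own, were at 19.4, 16.2, 19.8 and 17.8 scaled TPM in βPrlR+/- mice 1 to 4 and at 17.5, 14.3 and 14.0 in Prlr+/- mice 1 to 3. Prlr+/- mice 2 and 3 were the lowest, and Prlr+/- mouse 1 lay within the other group (means 18.3 ± 1.68 SD, n = 4, and 15.3 ± 1.93 SD, n = 3, two-sided exact permutation test p = 0.114). The XL start gave only 0.0900% of the value. For the 4 starts, exact permutation p ranged from 0.114 to 0.943, and the groups overlapped in each.

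**Figure D3:**
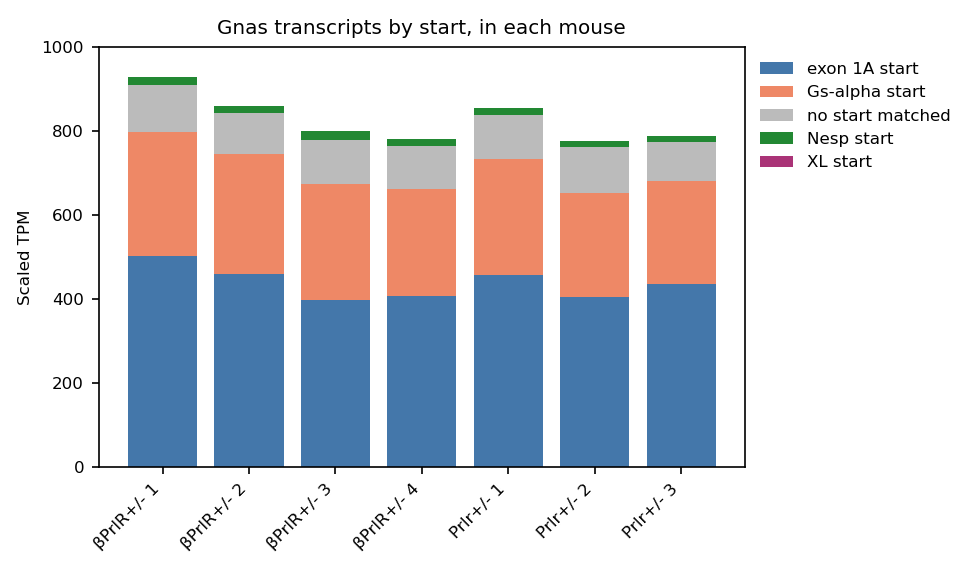
Stacked bars of the scaled TPM of GNAS transcripts in each mouse, by the start they were matched to. The exon 1A share stays between 49.7% and 55.2%, the Nesp share is a thin band of 1.78% to 2.48%, and the XL start is too low to see.

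Meg3, a maternally expressed long noncoding RNA of the Dlk1-Dio3 cluster on chromosome 12, varied 2.15-fold between mice. It was at 157, 233, 227 and 238 scaled TPM in βPrlR+/- mice 1 to 4 and at 142, 306 and 157 in Prlr+/- mice 1 to 3. Prlr+/- mouse 2 was the highest of all and the other Prlr+/- mice were among the lowest 3. The log2 difference was -0.15 (SE 0.28, 95% interval -0.80 to 0.50, limma adjusted p = 1). Without Prlr+/- mouse 2 it was -0.49 (limma unadjusted p = 0.0321, adjusted p = 0.740), without Prlr+/- mouse 1 it was 0.06, without Prlr+/- mouse 3 -0.02 and without βPrlR+/- mouse 1 -0.29, so its size and sign depended on single mice. Rian and Mirg, maternally expressed noncoding RNAs downstream in the same cluster, were highest in that mouse too. Rian was at 167 scaled TPM there and at 120 to 143 in the other mice, and Mirg at 18.8 against 7.27 to 12.4. Neat1, a nuclear noncoding RNA of another chromosome that is not imprinted, was also highest in that mouse, at 126 against 41.4 to 89.8. MALAT1, another nuclear RNA, was highest in βPrlR+/- mouse 3, at 193 against 148 in that mouse. The part of nuclear RNA content in these values was not tested. The transcript from the upstream Meg3 start held 82.0% of Meg3 and the one from the downstream start 16.9%. The windows are chr12:109540746-109541045 and chr12:109545148-109545447 on the + strand (RefSeq, GRCm38.p6). The upstream one holds 13 CpG sites and 1 copy of the hexamer, the downstream one 1 CpG site and no copy, and they are printed for this contrast.
Meg3 upstream start: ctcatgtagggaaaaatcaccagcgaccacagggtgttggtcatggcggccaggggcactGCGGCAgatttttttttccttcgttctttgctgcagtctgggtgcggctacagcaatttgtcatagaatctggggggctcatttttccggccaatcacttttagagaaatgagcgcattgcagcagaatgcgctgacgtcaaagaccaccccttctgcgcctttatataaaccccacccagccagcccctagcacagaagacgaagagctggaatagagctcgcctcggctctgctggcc
Meg3 downstream start: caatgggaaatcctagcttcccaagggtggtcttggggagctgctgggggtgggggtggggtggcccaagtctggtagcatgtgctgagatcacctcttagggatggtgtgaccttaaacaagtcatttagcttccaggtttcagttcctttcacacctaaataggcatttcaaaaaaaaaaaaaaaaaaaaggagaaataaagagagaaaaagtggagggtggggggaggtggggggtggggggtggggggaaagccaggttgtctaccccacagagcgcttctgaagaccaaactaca

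DLK1, a paternally expressed transmembrane ligand of the same cluster and also found in β-cells, averaged 2.78 scaled TPM, far below Meg3. βPrlR+/- mice 1 to 4 had 1.58, 3.55, 3.23 and 4.53 scaled TPM, and Prlr+/- mice 1 to 3 had 2.55, 2.10 and 1.90. The 3 Prlr+/- mice lay below 3 of the βPrlR+/- mice and above the fourth. The log2 difference of -0.36 was the most negative of the 32 genes (SE 0.24, 95% interval -0.92 to 0.21, limma adjusted p = 1). It was -0.21 without βPrlR+/- mouse 4, where SGCE was at -0.22. Other genes were also more negative without Prlr+/- mouse 2 (Meg3 -0.49, DLK1 -0.34) and without Prlr+/- mouse 3 (SNRPN -0.37, DLK1 -0.30). Without βPrlR+/- mouse 1 the DLK1 difference was -0.58, with an unadjusted p of 0.00391 and an adjusted p of 0.395 in limma. Of the neuron markers, VIP was lower in βPrlR+/- mouse 1 (45.2 scaled TPM) than in the other βPrlR+/- mice (97.4 to 158), as was SNAP25 (75.7 against 93.4 to 102), while PRPH was close (5.26 against 5.45 to 5.68). Their part in the DLK1 values was not tested. RTL1, a paternally expressed gene derived from a retrotransposon, stayed between 0.149 and 0.429 scaled TPM, and Dio3os was listed at 0 in 4 of the 7 mice.

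Among the other maternally expressed genes, those that act on growth were low to moderate. GRB10 was at 10.1, 9.52, 12.2 and 10.6 scaled TPM in βPrlR+/- mice 1 to 4 and at 10.3, 9.50 and 10.5 in Prlr+/- mice 1 to 3, a log2 difference of -0.06 (95% interval -0.27 to 0.15, limma adjusted p = 1). Its upstream start, maternally expressed in most tissues, gave the transcript that held 79.4% of the gene. A start further downstream gave 11.7%, and its level ran from 0.0206 to 3.19 scaled TPM in single mice with no division by group. Its share of the gene ran from 0.217% to 30.9%, so the division between the starts was not stable. Paternally expressed starts of neurons are known downstream, but whether this is one was not tested. The windows, chr11:12037371-12037670 and chr11:12027922-12028221 on the - strand (RefSeq, GRCm38.p6), are shown to compare these starts. They hold 45 and 9 CpG sites and 1 and 0 copies of the hexamer.
Grb10 upstream start: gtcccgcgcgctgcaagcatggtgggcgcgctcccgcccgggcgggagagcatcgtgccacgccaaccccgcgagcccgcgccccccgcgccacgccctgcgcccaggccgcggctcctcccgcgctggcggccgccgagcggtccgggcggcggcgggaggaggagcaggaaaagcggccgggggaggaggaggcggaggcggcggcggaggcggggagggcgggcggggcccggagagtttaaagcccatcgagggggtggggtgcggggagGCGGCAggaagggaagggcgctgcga
Grb10 downstream start: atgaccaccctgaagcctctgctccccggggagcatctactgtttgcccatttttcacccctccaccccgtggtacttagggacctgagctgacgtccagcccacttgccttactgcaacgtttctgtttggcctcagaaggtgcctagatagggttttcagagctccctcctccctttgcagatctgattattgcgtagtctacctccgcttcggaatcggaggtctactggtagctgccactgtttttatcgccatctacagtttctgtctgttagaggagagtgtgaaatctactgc

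Cdkn1c, the cyclin-dependent kinase inhibitor p57, was at 1.52, 1.45, 2.15 and 1.76 scaled TPM in βPrlR+/- mice 1 to 4 and at 1.51, 1.12 and 1.59 in Prlr+/- mice 1 to 3. Prlr+/- mouse 2 was the lowest, and the other Prlr+/- mice lay within the range of βPrlR+/- mice. Its log2 difference was -0.18 (SE 0.12, 95% interval -0.45 to 0.10, limma adjusted p = 1), with Meg3 next at -0.15. With TPM as deposited Meg3 was the more negative (-0.30 against -0.27), and without Prlr+/- mouse 2 Cdkn1c was at -0.08. IGF2R, the receptor that clears IGF2, averaged 13.5 scaled TPM in both groups, with a log2 difference of 0.01 (95% interval -0.30 to 0.32). Airn, the paternally expressed antisense RNA that silences Igf2r on the paternal chromosome, was at 5.50, 6.83, 9.21 and 6.99 and at 7.36, 5.25 and 6.74, with overlap (log2 difference -0.12, 95% interval -0.50 to 0.27). SLC22A18, a transporter gene beside Cdkn1c, averaged 0.894, and KCNQ1OT1, the paternally expressed noncoding RNA of that cluster, 0.954. KCNQ1OT1 had the widest relative range of the 32 genes, 3.20-fold from the lowest to the highest mouse, with its highest value of 1.84 in βPrlR+/- mouse 3.

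The remaining abundant maternally expressed genes differed little from mouse to mouse. BLCAP, a small membrane protein gene that is imprinted in brain, was at 29.2, 23.0, 24.5 and 23.8 scaled TPM in βPrlR+/- mice 1 to 4 and at 27.7, 25.7 and 23.7 in Prlr+/- mice 1 to 3 (log2 difference 0.03, 95% interval -0.19 to 0.25). COMMD1, which takes part in copper handling, was at 27.5, 24.4, 23.7 and 21.5 and at 29.3, 24.5 and 24.8. Its log2 difference of 0.11 was the most positive of the class (SE 0.10, 95% interval -0.13 to 0.34), though it was -0.04 with TPM as deposited and 0.03 without Prlr+/- mouse 1, and the ranges of the groups overlapped. SLC22A18, next at 0.10, was above COMMD1 in several alternatives. Among these were TPM as deposited (0.03), a pseudocount of 0.1 (0.19 against 0.11) and leaving out Prlr+/- mouse 1 (0.08). TRAPPC9, a subunit of a vesicle tethering complex, was at 20.2, 20.9, 20.8 and 21.5 and at 21.6, 18.8 and 21. COPG2, a coat protein of vesicles in the Golgi, was at 17.4, 18.4, 17.5 and 17.6 and at 19.1, 17.1 and 19.2. For these genes, Prlr+/- mouse 2 was the lowest of all mice for TRAPPC9 and COPG2, while the other Prlr+/- mice were at or above the βPrlR+/- mean. UBE3A, a ubiquitin ligase imprinted in neurons, was at 13.6, 14.5, 16.0 and 16.4 and at 13.9, 15.1 and 14.8. The 95% intervals of TRAPPC9, COPG2 and UBE3A were -0.18 to 0.12, -0.09 to 0.20 and -0.23 to 0.14. The groups also overlapped for PPP1R9A, at 4.42 to 5.72 in βPrlR+/- and 4.60 to 5.19 in Prlr+/- mice, and for Zim1, at 3.55 to 7.54 and 4.15 to 4.71. Their log2 differences were -0.01 and -0.07.

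PEG3, a zinc finger protein, was the most abundant paternally expressed gene. It was at 124, 99.8, 154 and 111 scaled TPM in βPrlR+/- mice 1 to 4 and at 129, 152 and 103 in Prlr+/- mice 1 to 3. The spread within each group exceeded the difference between their means (122 ± 23.6 SD, n = 4, and 128 ± 24.8 SD, n = 3), and the log2 difference was 0.07 (95% interval -0.35 to 0.48, limma adjusted p = 1). Its value lay on 4 predicted transcripts with 17.3% to 34.0% each, while the curated transcript was listed at 0 in every mouse. One of the 4 (XM_017322031.1) took 16.0% to 56.6% of the gene in single mice, so the division among them was not stable. USP29, which starts beside Peg3, was at 1.28 to 1.49 in βPrlR+/- and 1.16 to 1.39 in Prlr+/- mice. Peg13, a noncoding RNA inside the Trappc9 gene, was at 56.8, 71.4, 64.6 and 65.6 and at 68.4, 54.3 and 61.1 (log2 difference -0.08, 95% interval -0.32 to 0.16).

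Zrsr1, a splicing factor gene copied into an intron of Commd1, had the smallest spread of the abundant genes. It was at 52.2, 57.5, 54.2 and 52.7 scaled TPM in βPrlR+/- mice 1 to 4 and at 54.8, 54.2 and 56.3 in Prlr+/- mice 1 to 3, a range of 1.10-fold (log2 difference 0.03, 95% interval -0.10 to 0.16). RASGRF1, a guanine nucleotide exchange factor of Ras, was at 47.5, 53.3, 45.7 and 43.3 and at 53.3, 51.7 and 48.3. All 3 Prlr+/- mice were above 3 of the βPrlR+/- mice, and βPrlR+/- mouse 2 matched the highest of them (log2 difference 0.11, SE 0.08, 95% interval -0.08 to 0.30, limma adjusted p = 1, and -0.03 with TPM as deposited). A short RASGRF1 transcript of 3 exons (NM_001039655.1) held 87.6% of this value, with a log2 difference of 0.16. The transcript of 27 exons (NM_011245.2) held 9.02%, with a difference of -0.28, and the groups overlapped for both. NNAT, the proteolipid neuronatin, which aids insulin processing and secretion in β-cells, was at 43.9, 21.2, 36.0 and 25.3 and at 50.3, 29.9 and 31.6. The βPrlR+/- mice alone ran from 21.2 to 43.9. The log2 difference of 0.25 was the most positive of the 32 genes, with an interval of -0.40 to 0.90 (SE 0.28, limma adjusted p = 1). It rested on single mice, being 0.02 without Prlr+/- mouse 1, 0.08 without βPrlR+/- mouse 2 and 0.42 without βPrlR+/- mouse 1.

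NDN and SGCE came closest to a difference. NDN, or necdin, a growth suppressor of neurons, was at 37.0, 38.8, 36.2 and 37.6 scaled TPM in βPrlR+/- mice 1 to 4 and at 38.1, 30.1 and 31.9 in Prlr+/- mice 1 to 3. Prlr+/- mice 2 and 3 were below all βPrlR+/- mice, and Prlr+/- mouse 1 was among the highest (log2 difference -0.17, SE 0.08, 95% interval -0.36 to 0.03, limma unadjusted p = 0.0876, adjusted p = 1). The difference was -0.31 with TPM as deposited, -0.26 without Prlr+/- mouse 1 and -0.10 without Prlr+/- mouse 2. SGCE, or ε-sarcoglycan, a membrane protein whose loss from the paternal chromosome causes dystonia in humans, was at 8.80, 7.70, 10.1 and 8.52 and at 8.10, 7.42 and 6.88. Prlr+/- mouse 1 exceeded βPrlR+/- mouse 2 only (log2 difference -0.20, SE 0.10, 95% interval -0.43 to 0.02, limma unadjusted p = 0.0668, adjusted p = 1), and -0.33 with TPM as deposited. Of the 10 neuron markers, 9 had a negative difference, 6 did not overlap between the groups, and STMN2 and PRPH passed. Their part in the NDN and SGCE values was not tested. PEG10, a retrotransposon-derived gene that shares its promoter region with Sgce, was at 1.77 to 4.12 in βPrlR+/- and 3.26 to 3.78 in Prlr+/- mice, with a log2 difference of 0.12 (95% interval -0.38 to 0.62). MEST, a hydrolase-like protein, and PLAGL1, a zinc finger factor, averaged 2 and 1.93, and MEST ran from 1.68 to 2.53 and from 1.59 to 2.33 in the groups. IMPACT and NAP1L5 averaged 32.0 and 25.9, and Mcts2 and ZDBF2 4.80 and 4.67. ZDBF2 ran from 3.32 to 6.65 in βPrlR+/- mice and from 4.04 to 5.21 in Prlr+/- mice. The log2 differences of these 6 genes lay between -0.12 and 0.06.

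SNRPN and SNURF are encoded by the same transcript, so their values belong together. SNRPN, a paternally expressed splicing protein gene, was at 13.0, 27.7, 21.8 and 24.5 scaled TPM in βPrlR+/- mice 1 to 4 and at 23.3, 10.9 and 26.2 in Prlr+/- mice 1 to 3. It was low in a mouse of each group, βPrlR+/- mouse 1 and Prlr+/- mouse 2 (log2 difference -0.14, SE 0.34, 95% interval -0.94 to 0.66, limma adjusted p = 1). SNURF, the upstream reading frame, which has a row of its own outside the 42 genes, was at 24.0, 12.6, 10.5 and 11.7 and at 15.7, 23.9 and 12.6, high in just those 2 mice. The sum of SNRPN and SNURF ran from 32.4 to 40.3, a range of 1.24-fold, where SNRPN alone ranged 2.53-fold. On the sum, formed after the values had been seen, the log2 difference was 0.04 (two-sided exact permutation test p = 0.657), so the direction turned. The window chr7:60005150-60005449 on the - strand (RefSeq, GRCm38.p6) lies just upstream of the GENCODE start of the transcript that held 99.6% of SNRPN. It is at the imprinting control region of the locus and holds 7 CpG sites and 1 copy of the hexamer.
Snrpn start: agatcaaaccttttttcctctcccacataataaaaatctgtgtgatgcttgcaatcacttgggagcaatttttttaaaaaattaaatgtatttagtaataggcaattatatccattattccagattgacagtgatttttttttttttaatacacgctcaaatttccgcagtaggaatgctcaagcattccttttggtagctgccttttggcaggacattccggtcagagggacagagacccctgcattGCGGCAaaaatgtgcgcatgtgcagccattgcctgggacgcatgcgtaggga

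**Figure D4:**
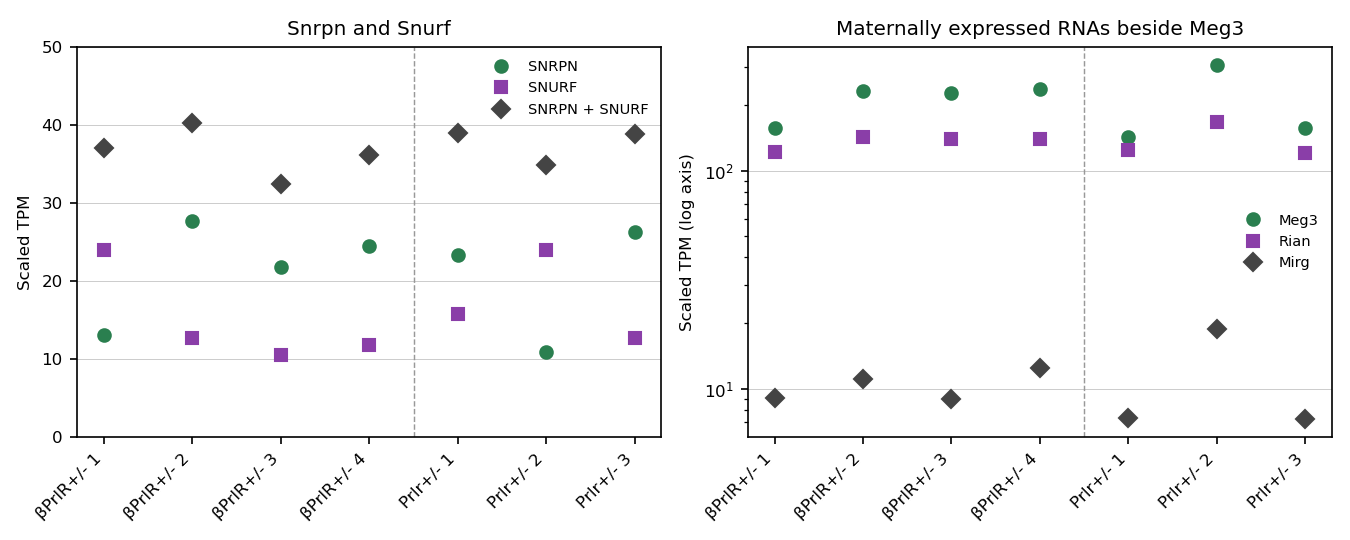
Left, scaled TPM of SNRPN, SNURF and their sum in each mouse; right, Meg3, Rian and Mirg on a log axis, with the groups divided by a dashed line. SNRPN and SNURF mirror each other in βPrlR+/- mouse 1 and Prlr+/- mouse 2 while their sum stays between 32.4 and 40.3, and all 3 RNAs of the Meg3 cluster peak in Prlr+/- mouse 2.

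The 8 genes with a row that were too low to test were H19, PHLDA2, ASCL2 and CALCR among the maternally expressed, RTL1, MAGEL2 and MKRN3 among the paternally expressed, and Dio3os. H19, a noncoding RNA abundant in fetal tissue, did not exceed 0.0394 scaled TPM in any mouse. PHLDA2, which restrains placental growth, was at 0.0366 to 0.0978 in the βPrlR+/- mice and reached 0.0344 in Prlr+/- mouse 2 alone, being listed at 0 in the other Prlr+/- mice, and ASCL2, a placental transcription factor, reached at most 0.0579. MAGEL2 and MKRN3, neighbours of Ndn, reached at most 0.0683 and 0.0987, and the calcitonin receptor CALCR 0.0166. H19, PHLDA2, ASCL2, CALCR and Dio3os were listed at 0 in at least 1 mouse, so no fold is given for them.

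At the level of transcripts, 186 belonged to these genes, and 73 of them, from 30 genes, were tested. None passed an adjusted p of 0.05 in limma (6 of 28553 transcripts, 0.0210%, did), and 1 had an unadjusted p under 0.05 (3.88% of all did). This was a SGCE transcript, NM_001130191.1, with 7.42% of the gene. It was at 1, 0.514, 0.846 and 0.957 scaled TPM in βPrlR+/- mice 1 to 4 and at 0.235, 0.242 and 0.467 in Prlr+/- mice 1 to 3, so the groups did not overlap, the only such case among the 73 (4.32% of all transcripts). The log2 difference was -0.47 (SE 0.15, limma unadjusted p = 0.0157, adjusted p = 1). Of the genes tested, 17 had at least 2 transcripts with 10% or more of the gene each. PEG10 was split into 2 models of 50% each in every mouse, and MEST into 3 of 15.7% to 66.5%.

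Neighbours in 1 imprinted cluster were compared across the 7 mice for 10 pairs (Pearson's r on log2 values, two-sided exact permutation over 5040 orders, Benjamini-Hochberg adjustment over the 10). None had an adjusted p under 0.05, and 3 had an unadjusted one. NNAT, which lies in an intron of Blcap, and BLCAP had a positive correlation (r = 0.84, exact permutation p = 0.0200, adjusted p = 0.0860, rho = 0.79 with p = 0.0480), and r was 0.78 without the 2 mice farthest from the median of NNAT. With TPM as deposited it was 0.60 (exact permutation p = 0.138). MEST and COPG2, convergent neighbours, had a negative one (r = -0.87, exact permutation p = 0.0258, adjusted p = 0.0860, rho = -0.82 with p = 0.0341, r = -0.91 without the 2 mice), but with TPM as deposited r was 0.10. TRAPPC9 and Peg13 gave r = 0.82 (exact permutation p = 0.0127, adjusted p = 0.0860, rho = 0.71 with p = 0.0881), which fell to 0.22 without βPrlR+/- mouse 1 and Prlr+/- mouse 2 and so rests on those mice. With TPM as deposited it was 0.95 (exact permutation p = 0.0107, adjusted p = 0.107). For the other 7 pairs, r lay between -0.01 and 0.49. PEG3 and USP29 gave 0.25, but 0.93 without Prlr+/- mouse 2 (exact permutation p = 0.0153, adjusted p = 0.148) and -0.18 without βPrlR+/- mouse 3. NDN and SNRPN gave 0.49, but 0.79 without Prlr+/- mouse 3 (exact permutation p = 0.0361, adjusted p = 0.0903) and -0.12 without Prlr+/- mouse 2. DLK1 and Meg3 gave 0.44 (exact permutation p = 0.308), but 0.29 without βPrlR+/- mouse 1 and 0.83 without Prlr+/- mouse 2. IGF2R and Airn gave 0.34 (exact permutation p = 0.449), but 0.01 without βPrlR+/- mouse 3 and 0.61 both without βPrlR+/- mouse 2 and with TPM as deposited.

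**Figure D5:**
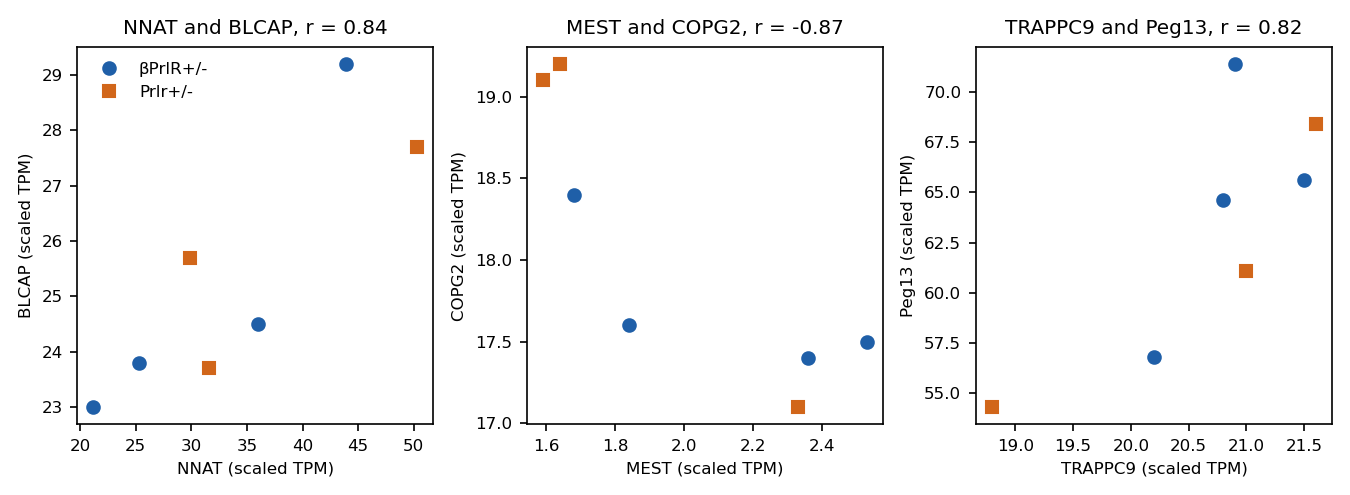
Scaled TPM of neighbouring imprinted genes plotted against each other, 1 point per mouse (circles, βPrlR+/-; squares, Prlr+/-), with Pearson's r of the log2 values. The axes do not start at 0, and COPG2 covers only 17.1 to 19.2 while MEST covers 1.59 to 2.53.

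Other known imprinted genes and the proteins that maintain imprints gave a frame for these values. Of 41 other imprinted genes listed, 27 were tested and none passed an adjusted p of 0.05 in limma, while 4 had an unadjusted p under 0.05 (4.52% of all genes did), and the groups did not overlap in 4 (4.95% of all genes). IGF2, the fetal growth factor and neighbour of Ins2 and H19, was at 3.95, 2.99, 4.05 and 3.88 scaled TPM in βPrlR+/- mice 1 to 4 and at 2.51, 1.49 and 2.58 in Prlr+/- mice 1 to 3. All Prlr+/- mice were below all βPrlR+/- mice (log2 difference -0.58, 95% interval -0.93 to -0.22, limma unadjusted p = 0.00603, adjusted p = 0.694), with the smallest p that an exact permutation of 4 against 3 mice can give, 0.0286. CD81, a tetraspanin, was at 67.1, 74.9, 68.5 and 75.1 and at 62.7, 48.4 and 47.6, also without overlap (log2 difference -0.44, limma unadjusted p = 0.00417, adjusted p = 0.607). AMPD3 and QPCT were the other genes, with differences of -0.21 and 0.26 (limma unadjusted p = 0.0490 and 0.0218). IGF2 and CD81 are made in stromal and vascular cells too. The stromal markers had a negative difference in 8 of 9, past the threshold in 1 (THY1), an unadjusted p under 0.05 in 1 and no overlap in 1. The median of the list was -0.12, while THY1 was at -0.73. The neuron markers that passed, PRPH and STMN2, were at -0.76 and -0.81. The endothelial markers had a negative difference in 9 of 9, past the threshold in 0, an unadjusted p under 0.05 in 5 and no overlap in 4. The part of either list in these values was not tested. DDC, Rian and SLC38A4 were the most abundant of this list that did not pass, with differences of 0.26, -0.001 and -0.06.

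Of 21 genes for the upkeep of imprints, 17 were tested, 0 passed an adjusted p of 0.05 and 0 had an unadjusted p under 0.05 in limma. Their log2 differences lay between -0.07 and 0.09, and the 95% intervals of all 17 were within 0.5 log2 units of 0. CBX3, EHMT2 and TRIM28, a heterochromatin protein, a histone methyltransferase and the cofactor that ZFP57 recruits, were the most abundant at 52.9, 44.1 and 35.1 scaled TPM. ZFP57 itself was at 0.0480 to 0.145 scaled TPM, and ZNF445, a related imprint-binding factor, at 12.0 to 15.7. DNMT1, the maintenance DNA methyltransferase, averaged 4.65.

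RefSeq held 46 promoter windows of 300 bases for 32 of the 42 genes (GRCm38.p6). TGCCGC, read on either strand, was in 14 of them, 30.4%, and in 11.6% of the 32851 windows of all genes. The share was 33.3% for maternally and 34.8% for paternally expressed genes. The windows of imprinted genes also held more CpG sites than others, with a median of 17 against 7, and some windows overlap, so they are not independent of one another. The Peg3 and Usp29 windows share 263 bases, and 2 windows of Mest that are almost the same sequence both count among the 14. A match describes the letters of a window and not binding.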

How the data were processed

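Islet RNA of 7 mice (4 βPrlR+/-, 3 Prlr+/-) was sequenced. Groups came from the deposited labels. The authors assigned reads to mouse RefSeq transcripts with kallisto 0.42.4, per the labels. No genome build is given in the sources used here. Deposited values are named FPKM in the methods, yet sum to 1000000 in each mouse, and were treated as TPM. The mouse tables (14 of 14) held the same values, and no sample column was left unused. TPM keeps no depth, so no counting interval is given. The methods of the study give a range of reads per sample, but the reads behind a gene's value are unknown.

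TPM was divided by median-ratio size factors (scaled TPM). A mean of 0.5 TPM was required, and genes were fitted as log2(scaled TPM + 1) with limma 3.58.1 (R 4.3.3, mean-dependent variance, Benjamini-Hochberg adjustment over 14840 genes, threshold 0.05). Fold changes on this scale understate the change of low genes. Single values were also compared over the 35 splits of the mice. On simulated data with 14840 genes, 85.2% of changes of 1 log2 unit and 93% of changes of 2 log2 units were found, and 5.01% of calls were false. The simulation changed 200 genes per run on the log2 scale with normal noise, while only 10 genes passed in the data. With fewer passing genes a lower unadjusted p is needed, so the shares found may be lower in this comparison. Whether the mice were littermates is not stated. The p-values of the group comparison set the difference between the groups against the spread between these mice. Alternatives were no scaling, scaling to the upper quartile, 0.1 as pseudocount, no filter beyond a value above 0, and 1 mouse left out at a time.

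Values in every mouse are given for the 6 most abundant genes of each allele class, those with the largest change in each direction, GNAS, genes with several major transcripts (in part by range), and PRLR. Of the lists of other imprinted and imprint upkeep genes, those with an unadjusted p under 0.05 or the 3 highest are named. Mirg, SNURF, ZFP57, ZNF445 and DNMT1 are named besides, without meeting these conditions. Values in every mouse are given for IGF2, CD81 and SNURF. NDN, SGCE and SNRPN were added after their values were seen. Genes, lists and pairs were chosen with earlier results of these data known. Transcript starts came from GENCODE M21 and promoter windows from RefSeq. Gene names follow the files, which give many mouse genes human symbols.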

Additional observations from a re-analysis of the deposited data

Results flagged for a closer look

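In the 4 βPrlR+/- mice, a mouse stood far from the other 3 for 3 genes, of which only Meg3 is among the 42 imprinted genes. The check covered the 32 tested imprinted genes, PRLR and 7 neighbours or other imprinted genes, and chance flags about 1 in 20. Meg3 was at 157 scaled TPM in βPrlR+/- mouse 1, where the next lowest was 227. SNURF, outside the 42, was at 24.0 in the same mouse, where the next highest was 12.6. IGF2, also outside them, was at 2.99 in βPrlR+/- mouse 2, where the next lowest was 3.88. That mouse was still above the highest Prlr+/- mouse, at 2.58.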

How the results depend on the processing

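No imprinted gene passed an adjusted p of 0.05 in limma under any of the 11 alternatives, nor did a transcript of these genes, another imprinted gene, a gene of imprint upkeep or a pair of neighbours. The smallest adjusted p was 0.395 among the 42 genes (DLK1 without βPrlR+/- mouse 1) and, for CD81 of the other imprinted genes, 0.218 (without Prlr+/- mouse 1). Unscaled TPM shifted the median of all genes by -0.12. There 4 imprinted genes (NDN, SGCE, NAP1L5, GNAS) had an unadjusted p under 0.05, the median of the maternally expressed genes was -0.15, and 11 log2 differences turned negative: PEG3 -0.08, COPG2 -0.08, PLAGL1 -0.03, Zrsr1 -0.12, COMMD1 -0.04, IMPACT -0.09, IGF2R -0.13, RASGRF1 -0.03, BLCAP -0.11, Mcts2 -0.09 and ZDBF2 -0.09. Upper-quartile scaling gave IGF2R -0.01, and the sum with SNURF, added after seeing the data, gave SNRPN 0.04. Over all genes, 18 passed with a pseudocount of 0.1 and 4 with all genes above 0, where 1 imprinted gene (PHLDA2, -0.08, adjusted p = 0.838) had an unadjusted p of 0.0113. Leaving out each mouse gave 2 to 13 passing genes and 0 to 1 imprinted genes with an unadjusted p under 0.05 (DLK1 without βPrlR+/- mouse 1, SGCE without βPrlR+/- mouse 2, NDN without Prlr+/- mouse 1, Meg3 without Prlr+/- mouse 2). It also changed the sign of 17 small differences, with these ranges: Meg3 -0.49 to 0.06, KCNQ1OT1 -0.15 to 0.13, PEG3 -0.07 to 0.21, Zim1 -0.19 to 0.12, PEG10 -0.08 to 0.22, PPP1R9A -0.05 to 0.05, PLAGL1 -0.02 to 0.16, GRB10 -0.11 to 0.001, SNRPN -0.37 to 0.23, IMPACT -0.01 to 0.09, Peg13 -0.16 to 0.01, TRAPPC9 -0.07 to 0.03, Airn -0.22 to 0.005, IGF2R -0.10 to 0.07, BLCAP -0.02 to 0.10, Mcts2 -0.15 to 0.25 and ZDBF2 -0.09 to 0.18. The cause was not tested. PRLR stayed negative, from -0.31 to -0.04 with a mouse left out. No paired analysis was possible because the labels number the mice singly and the groups share no number. TPM does not give the reads behind a gene, so no counting error could be set, and low genes such as H19 cannot be compared.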
